A study of Mus musculus with 6 samples.

Results

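The nuclear genes of oxidative phosphorylation were followed by complex in mouse erythroblasts with and without Setd8. They were taken as all gene rows of the deposited count tables whose symbol begins with Ndufa, Ndufb, Ndufs, Ndufv, Uqcr, Atp5 or Cox4 to Cox8, or is Sdha, Sdhb, Sdhc or Sdhd. This gave 88 of 23284 gene rows, of which 81 had enough reads to be tested. Among the rows were 38 of complex I, 4 of complex II, 8 of complex III, 20 of complex IV and 16 of complex V. The remaining pair, Cox4nb and Atp5sl, matched by name without encoding a subunit of a complex. Complex I and complex II feed electrons from NADH and succinate to ubiquinone, complex III passes them to cytochrome c, and complex IV passes them to oxygen. The proton gradient that complexes I, III and IV build drives ATP synthase, complex V. Each complex except II joins subunits encoded by the mitochondrial genome to the nuclear-encoded ones described here, and maturing red cells finally discard their mitochondria altogether.

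Polyadenylated RNA was sequenced from 6 samples of live Ter119+CD71+ erythroblasts, the nucleated precursors of red cells, sorted by flow cytometry from C57BL/6 embryos at E10.5. The labels give fetal liver as the source and the design text gives fetal blood. The null group held 3 libraries of genotype SETD8fl/fl EpoR Cre, in which Cre recombinase is expressed from the erythropoietin receptor locus, active in erythroid cells. Control replicates 1 and 3 were Setd8 +/+ EpoRCre and control replicate 2 was Setd8 fl/fl EpoR WT, so that a single control carried floxed alleles and the others carried Cre. Setd8 encodes a histone methyltransferase that monomethylates H4K20. The titles of control replicate 3 and null replicates 2 and 3 end in a letter (the lettered set), and those of control replicates 1 and 2 and null replicate 1 do not (the unlettered set). Labels do not say what the letter stands for. Whether the replicates were separate embryos is not stated, so p-values reflect only sample-to-sample spread, part of which may be technical.

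Counts assigned to genes ranged from 7756940 to 21434719 per library. Values below are CPM, counts per 1000000 counts of library size, scaled by the TMM factors of edgeR, and ratios are log2 ratios of null to control. Setd8 stood at 73.8 and 74.8 CPM in the unlettered controls against 48.8 in the null library, and at 203 CPM in the lettered control against 100 and 96.2 in the null libraries. It fell by 0.83 on the log2 scale with the title set as a term (SE 0.17, edgeR quasi-likelihood test, Benjamini-Hochberg adjusted p = 0.00911), but did not pass with group alone (log2 ratio -0.52, adjusted p = 0.702) or without control replicate 3 (-0.62, adjusted p = 0.134). These are counts over the whole gene, in which the floxed part is not separated. All 8 erythroid markers were present. They summed to 124400 and 137200 CPM in the unlettered controls and 136000 in the null library, and to 107900 CPM in the lettered control and 75680 and 65210 in the null libraries. Globin genes took 45.2%, 44.4% and 39.9% of the counts in the former and 37.1%, 28.3% and 26.5% in the latter, in the same order. Most of each erythroid sum came from the globin gene Hbb-bh1, so the sums largely repeat the globin shares. Hbb-bh1 was at 116700, 129500 and 129300 CPM in the unlettered libraries and 100800, 69360 and 58520 CPM in the lettered ones. Among the erythroid markers Tfrc, the gene for CD71, was lower in the null group (log2 ratio -0.92, adjusted p = 0.00363). Macrophage markers summed to 1.81 to 10.2 CPM in controls and 33.0 to 88.2 CPM in null libraries, with 3 of 7 tested genes higher. These were Cd68, Csf1r and C1qb, while C1qa, C1qc, Cd14 and Mrc1 did not pass. Of all tested genes 8.65% rose in the same test, the background for this and the following marker lists. Endothelial markers summed to 0.319 to 1.49 CPM in controls and 5.73 to 20.01 CPM in null libraries. Of 7 listed genes 2 were tested, Tek and Pecam1, and both were higher. The rest had few reads: Emcn had 0, Cdh5 had 1 in null replicate 3, and Tie1 had 7 in control replicate 3 and 1 in null replicate 3. Kdr had 47 in null replicate 1 and at most 2 in any control, and Esam had 9, 33 and 3 in null replicates 1 to 3 and 0 in controls. Megakaryocyte markers summed to 14.2 to 31.0 and 40.4 to 83.1 CPM, with 1 of 4 tested genes higher. It was Itga2b (log2 ratio 1.82, edgeR adjusted p = 0.00138), which made up most of the sums in null libraries. Gp1bb (1.14), Pf4 (0.10) and Gp9 (-0.37) did not pass. Hepatic Alb had no read in any library. Hepatic markers summed to 0.148 to 4.32 CPM in controls and 0.359 to 4.96 CPM in null libraries, and mesenchymal markers to 0 to 3.07 and 0.155 to 3.18 CPM, with 0 of 1 tested gene called in each list. The part of these cells in the results below was not tested, and in bulk samples fewer cells of a type and less RNA per cell cannot be told apart.

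Promoters of 5 members are shown because 3 of them (Cox6b2, Cox7a2l and Ndufb6) belong to genes that passed the test, Cox6b1 is the ubiquitous counterpart of Cox6b2, and Cox6a1 holds both searched motifs. Cox4i1 passed the test as well but had no entry among the promoter sequences, so its promoter was not searched. Each runs 5′ to 3′ along the gene's own strand, from 250 bases before to 50 after the annotated start in RefSeq (GRCm38.p6), and capitals mark a motif.
Cox6b2 (chr7:4753045-4753344, minus strand): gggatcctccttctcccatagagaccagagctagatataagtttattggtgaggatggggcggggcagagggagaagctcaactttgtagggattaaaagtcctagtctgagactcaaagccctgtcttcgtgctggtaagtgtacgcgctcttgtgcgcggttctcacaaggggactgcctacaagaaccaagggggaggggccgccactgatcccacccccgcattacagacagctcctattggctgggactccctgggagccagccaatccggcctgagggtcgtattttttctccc
Cox7a2l (chr17:83514284-83514583, minus strand): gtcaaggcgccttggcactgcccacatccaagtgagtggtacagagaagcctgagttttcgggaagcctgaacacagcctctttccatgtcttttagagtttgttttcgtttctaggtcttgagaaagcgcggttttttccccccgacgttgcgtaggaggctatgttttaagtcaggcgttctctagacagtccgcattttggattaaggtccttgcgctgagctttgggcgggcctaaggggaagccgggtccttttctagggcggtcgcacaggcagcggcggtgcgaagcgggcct
Ndufb6 (chr4:40279372-40279671, minus strand): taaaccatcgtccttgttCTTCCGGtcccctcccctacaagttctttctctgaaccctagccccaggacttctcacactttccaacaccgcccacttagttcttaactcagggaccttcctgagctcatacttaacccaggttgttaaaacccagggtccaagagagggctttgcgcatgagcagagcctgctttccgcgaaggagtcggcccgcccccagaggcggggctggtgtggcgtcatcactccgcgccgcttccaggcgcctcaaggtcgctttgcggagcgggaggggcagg
Cox6b1 (chr7:30626065-30626364, minus strand): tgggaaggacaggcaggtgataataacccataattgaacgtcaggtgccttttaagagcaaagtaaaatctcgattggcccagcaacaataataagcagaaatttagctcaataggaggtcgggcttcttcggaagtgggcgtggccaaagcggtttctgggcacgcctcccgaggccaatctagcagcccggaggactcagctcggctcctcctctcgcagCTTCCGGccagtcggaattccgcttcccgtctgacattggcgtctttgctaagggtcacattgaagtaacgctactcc
Cox6a1 (chr5:115348909-115349208, minus strand): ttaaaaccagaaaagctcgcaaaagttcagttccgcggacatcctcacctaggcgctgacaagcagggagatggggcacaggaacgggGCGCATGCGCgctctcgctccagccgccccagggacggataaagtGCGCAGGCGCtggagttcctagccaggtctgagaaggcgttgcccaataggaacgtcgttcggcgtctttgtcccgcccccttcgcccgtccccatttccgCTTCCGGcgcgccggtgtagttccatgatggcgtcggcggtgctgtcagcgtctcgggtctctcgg

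The motifs were those of NRF1 (GCGCA, any base, then GCGC) and GABP (CCGGAAG), transcription factors known for regulating respiratory genes, searched on both strands; a match to one is never a match to the other. Of the 88 genes, 72 had an entry in the promoter table, with 78 promoters in all. NRF1 letters occurred in 24.4% of these promoters, against 4.6% of all promoters in the table and 11.1% of those of tested genes. GABP letters occurred in 21.8%, against 8.9% and 19.3%. Median GC content was 58.0% in the members' promoters, 52.7% in all promoters and 61.0% in those of tested genes. NRF1 letters were found in 18 members and GABP letters in 17, and 4 had both: Atp5h, Atp5k, Cox6a1 and Sdhd. By complex I to V, NRF1 letters were present in 8 of 34, 2 of 3, 1 of 5, 1 of 14 and 6 of 15 members with a promoter, and GABP letters in 5, 2, 2, 3 and 5 of the same; the complexes were not tested against each other. Neither motif was in the windows of Cox6b2 and Cox7a2l, and Ndufb6 and Cox6b1 each held 1 GABP match.

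With the title set as a term, 4 of the 81 tested members rose in the null group and none fell. They were Cox6b2, Cox7a2l and Cox4i1 of complex IV and Ndufb6 of complex I. Among all 10512 tested genes, 8.65% rose and 4.16% fell at the same threshold (edgeR quasi-likelihood test, Benjamini-Hochberg adjusted p under 0.05), so the share of members called was below the background in both directions. At an unadjusted p under 0.05, 18 members were higher and 1 was lower. The median log2 ratio of the members was 0.27 against 0.04 for all tested genes, and 69 of 81 members (85.2%) had a positive ratio against 52.4% of all genes. With group as the only term, Cox6b2 alone passed, none was lower, and 1.14% of all genes rose and 0.00951% fell. All 3 null libraries lay above all 3 controls in 6 members, Atp5s, Cox6b2, Cox7a1, Ndufaf1, Ndufb6 and Ndufv1, and below them in 0 (14.9% and 9.19% of all tested genes).

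**Figure D1:**
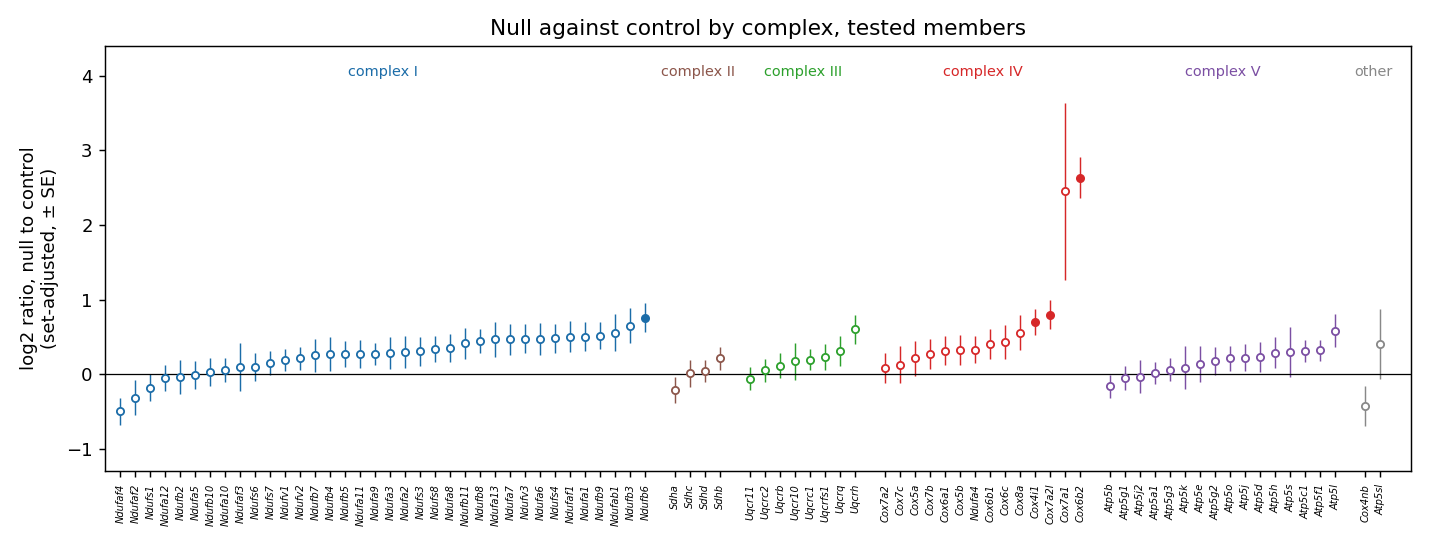
Set-adjusted log2 ratio of null to control (vertical axis, bars ± SE) for 80 of the 81 tested members (1 is not shown), ordered by ratio within each complex along the horizontal axis. Filled points passed the test; all 14 tested members of complex IV lie above 0, and Cox6b2 at 2.64 is the highest of those shown. Within the lettered set alone, 5 of these 14 had a positive ratio.

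Cox6b2, which encodes the testis isoform of cytochrome c oxidase subunit VIb, was the member with the largest change. Its level was 63.0, 55.6 and 67.5 CPM in control replicates 1 to 3 and 550, 356 and 206 CPM in null replicates 1 to 3. Every null library was thus far above every control, in both title sets. The set-adjusted ratio was 6.22-fold (log2 ratio 2.64, SE 0.28, edgeR quasi-likelihood test, adjusted p = 0.000294). Within the unlettered set it was 9.30-fold (adjusted p = 0.000468) and within the lettered set 4.16-fold (adjusted p = 0.0146). Cox6b2 was called in all 12 alternatives, from a log2 ratio of 2.05 without null replicate 1 to 3.20 without control replicate 3. Its exons shared no 50-base word with another gene and overlapped no exon on the opposite strand. In null replicates 1 to 3 the macrophage markers summed to 33.0, 42.3 and 88.2 CPM, the endothelial markers to 20.01, 10.1 and 5.73 CPM, and the megakaryocyte markers to 40.4, 83.1 and 64.6 CPM. All these sums were above those of every control, as was Cox6b2, and their part in its level was not tested.

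The ubiquitous isoform of the same subunit, Cox6b1, stood at 248, 275 and 317 CPM in control replicates 1 to 3 and 477, 344 and 267 CPM in null replicates 1 to 3. Null replicate 3 lay below control replicates 2 and 3, so the groups overlapped, and the set-adjusted ratio did not pass (log2 ratio 0.41, edgeR adjusted p = 0.215). Per kilobase of exon, Cox6b1 gave 401, 445 and 512 CPM per kb in controls against 85.1, 75.1 and 91.1 for Cox6b2. In null replicates 1 to 3 the levels were 772, 557 and 431 CPM per kb for Cox6b1 and 743, 481 and 278 for Cox6b2. The testis isoform was therefore far below the ubiquitous one in each control and near its level in null replicate 1.

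Other tissue-restricted isoforms of complex IV had few reads or none. Cox7a1, the heart and muscle isoform of subunit VIIa, measured 0.44, 0.11 and 0.33 CPM in controls and 2.45, 1.18 and 0.93 CPM in null libraries. All null values were above all controls, yet the ratio, which rests on few reads, did not pass (log2 ratio 2.45, SE 1.19, edgeR adjusted p = 0.206). Its ubiquitous counterpart Cox7a2 stood at 195, 214 and 203 CPM in controls and 299, 176 and 137 CPM in null libraries, with overlapping groups. Cox6a2, Cox7b2, Cox8b and Cox8c had 0 reads in all 6 libraries. Cox4i2, the oxygen-sensitive isoform of subunit IV, had 3 reads, all in null replicate 3. Ndufa4l2 had 2, 0 and 5 reads in control replicates 1 to 3 and 1, 14 and 0 in null replicates 1 to 3. Of the complex I rows, Ndufs5 was listed at 0 in every library although it encodes a subunit present in every complex I, and no level is drawn from that row.

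**Figure D2:**
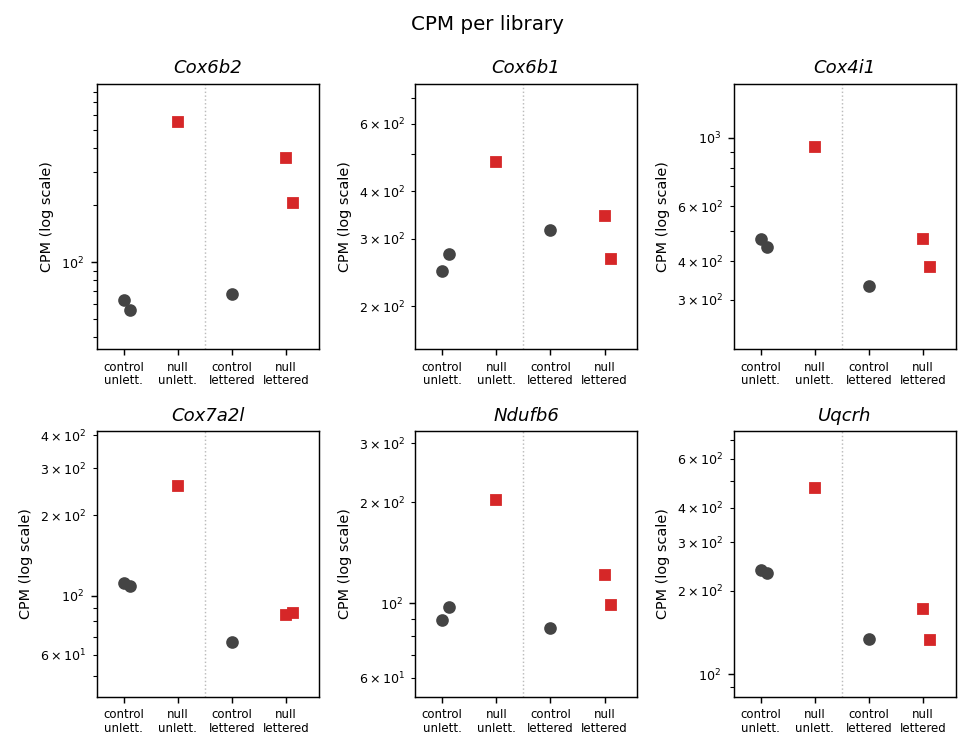
Level in CPM (vertical axis, log scale, with its own range in each panel) of 6 members in each library, by group and title set along the horizontal axis; circles are controls, squares null libraries, and the dotted line parts the unlettered set (left) from the lettered set (right). In every panel null replicate 1, the single unlettered null library, is the highest of the 6 libraries. Both lettered null libraries lie above the lettered control for Cox6b2, Cox4i1, Cox7a2l and Ndufb6, by the widest margin for Cox6b2, but not for Cox6b1 and Uqcrh.

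Cox4i1, the ubiquitous subunit IV, was at 471, 443 and 333 CPM in control replicates 1 to 3 and 934, 472 and 382 CPM in null replicates 1 to 3. Null replicate 3 lay within the control range, null replicate 2 a little above it, and null replicate 1 far above it. The gene rose 1.62-fold in the set-adjusted fit (log2 ratio 0.70, SE 0.18, edgeR adjusted p = 0.0249).

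Cox7a2l, a factor that helps to join complexes III and IV into supercomplexes, was at 111, 108 and 66.8 CPM in controls and 258, 84.4 and 86.0 CPM in null libraries. Within each set the null libraries were above the controls, but across sets the groups overlapped. The set-adjusted rise was 1.74-fold (log2 ratio 0.80, SE 0.20, edgeR adjusted p = 0.0216). Ndufb6, a supernumerary subunit of the complex I membrane arm, was at 88.9, 97.6 and 84.4 CPM in controls and 203, 122 and 98.8 CPM in null libraries, with no overlap between the groups. It rose 1.69-fold (log2 ratio 0.76, SE 0.19, edgeR adjusted p = 0.0253). Exons of Smim27 on the opposite strand cover 39.0% of the Ndufb6 exons, and with no strand setting stated for the counting, reads of the pair cannot be told apart. Each of these 3 genes lost its call with group alone, and also when control replicate 1 or 2, or null replicate 1 or 2, was left out. Without null replicate 1, which leaves the lettered set to compare the groups, their log2 ratios were 0.35 for Cox4i1 (adjusted p = 0.388), 0.35 for Cox7a2l (0.469) and 0.38 for Ndufb6 (0.455). With group alone they were 0.52 (edgeR adjusted p = 0.616), 0.58 (0.66) and 0.65 (0.386). In the other losses the ratios stayed near those of all 6 libraries: 0.61 to 0.64 for Cox4i1, 0.70 to 0.82 for Cox7a2l and 0.65 to 0.71 for Ndufb6, with edgeR adjusted p from 0.0627 to 0.124.

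By complex, the set-adjusted medians were 0.27 for complex I (37 tested), 0.03 for complex II (4), 0.18 for complex III (8), 0.37 for complex IV (14) and 0.19 for complex V (16), beside 0.04 for all tested genes. In complex I, the core subunits that carry electrons from NADH to ubiquinone ran from -0.18 to 0.33, with Ndufs1 at -0.18 (SE 0.18) and Ndufv1, the NADH-binding subunit, at 0.19 (0.15). None of the 7 passed. Ndufs1 was at 212, 181 and 165 CPM in control replicates 1 to 3 and 144, 176 and 173 CPM in null replicates 1 to 3, with null replicate 1 the lowest library. Ndufv1 was at 205, 224 and 208 CPM in controls and 232, 256 and 241 CPM in null libraries, so that its groups did not overlap although the difference was small. Of the 26 supernumerary subunits, which surround the core and take no direct part in electron transfer, 23 had a positive ratio and Ndufb6 passed. Among the 4 assembly factors matched by the symbols, the ratios ran from -0.50 for Ndufaf4 to 0.50 for Ndufaf1. Ndufaf4 was at 94.0, 92.8 and 70.7 CPM in controls and 72.5, 47.3 and 43.6 CPM in null libraries, so that null replicate 1 was just above the lowest control (SE 0.18, edgeR adjusted p = 0.0921).

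Complex II, which links the citrate cycle to the chain, had 0 of 4 subunits called. Its catalytic subunit Sdha was at 342, 394 and 268 CPM in controls and 294, 214 and 285 CPM in null libraries (log2 ratio -0.21, SE 0.17), and its iron-sulfur subunit Sdhb at 186, 204 and 181 CPM in controls and 255, 191 and 182 CPM in null libraries (0.22, SE 0.15). The groups overlapped for both. In complex III, core protein Uqcrc1 was at 497, 488 and 454 CPM in controls and 586, 472 and 526 CPM in null libraries, again overlapping (log2 ratio 0.19, SE 0.14). The Rieske iron-sulfur protein Uqcrfs1 had a log2 ratio of 0.23 (SE 0.18), and the small subunit Uqcr11, at -0.06 (SE 0.16), was the lowest of the complex. The hinge protein Uqcrh, which eases the docking of cytochrome c, was at 238, 231 and 134 CPM in controls and 470, 172 and 133 CPM in null libraries. Null replicate 1 was above all controls, null replicate 2 was within their range, and null replicate 3 was level with the lowest control (log2 ratio 0.60, SE 0.19, edgeR adjusted p = 0.0645). The ubiquitous subunits of complex IV all had a positive set-adjusted ratio (11 of 11, from 0.09 for Cox7a2 to 0.70 for Cox4i1), with Cox4i1 called, where 52.4% of all tested genes were positive. Within the unlettered set, which holds null replicate 1 alone, 11 of 11 were positive, and within the lettered set 2 of 11. Cox6a1 was at 440, 405 and 407 CPM in controls and 715, 410 and 334 CPM in null libraries, and Cox7b at 201, 232 and 184 CPM in controls and 349, 187 and 145 CPM in null libraries. Ndufa4, once counted with complex I and now placed in complex IV, was at 312, 274 and 205 CPM in controls and 481, 217 and 176 CPM in null libraries. In these genes null replicate 1 was above and null replicate 3 below all controls, with null replicate 2 between. Cox8a was at 109, 112 and 204 CPM in controls and 232, 253 and 168 CPM in null libraries, where null replicate 3 fell inside the control range.

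In complex V none of the 16 tested members passed. The α subunit gene Atp5a1 was at 735, 844 and 940 CPM in controls and 785, 1023 and 914 CPM in null libraries (log2 ratio 0.02, SE 0.15), and the catalytic β subunit gene Atp5b had a log2 ratio of -0.17 (SE 0.15). Atp5g1, Atp5g2 and Atp5g3 encode the same mature c-ring protein, and their ratios were -0.05 (SE 0.16), 0.18 (0.19) and 0.06 (0.16). Of the 3, Atp5g1 had 469, 446 and 330 CPM in controls and 515, 293 and 254 CPM in null libraries. Atp5g3 had 313, 316 and 400 CPM in controls and 382, 378 and 335 CPM in null libraries. Atp5g3 differed little between title sets, whereas Atp5g1 was lower in every lettered library. Atp5l, subunit g of the membrane part, was at 183, 221 and 156 CPM in controls and 442, 179 and 141 CPM in null libraries, with null replicate 1 alone above the controls. Its ratio was the highest of the complex at 0.59 (SE 0.22, edgeR adjusted p = 0.114), and 84.8% of its 50-base words occur in other annotated loci, among them Atp5l2-ps, so its counts are uncertain. The summed level of complex IV was 2640, 2657 and 2749 CPM in control replicates 1 to 3 and 5220, 3227 and 2469 CPM in null replicates 1 to 3. That of complex V was 5222, 5447 and 5782 against 6929, 5609 and 5275 CPM. In both complexes null replicate 1 was above all controls; null replicate 3 was below them in complex IV and within their range in complex V. All members together took 1.39%, 1.44% and 1.70% of the counts of control replicates 1 to 3 and 1.90%, 1.91% and 1.84% of those of null replicates 1 to 3. With globin genes left out of the totals, the shares became 2.53%, 2.59% and 2.71% in controls and 3.17%, 2.67% and 2.502% in null libraries, so that the groups overlapped.

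The groups were also compared within each title set. In the unlettered set, null replicate 1 against control replicates 1 and 2, 22 of 81 members rose and 0 fell, beside 6.17% and 1.9% of all tested genes (edgeR quasi-likelihood test on 4 group means, 2 residual degrees of freedom). The median log2 ratio was 0.58 against 0.04 for all genes, with 73 members positive. In the lettered set, null replicates 2 and 3 against control replicate 3, Cox6b2 rose and 0 members fell, beside 1.93% and 0.447% of all tested genes. The median there was -0.05 against 0.04 for all genes, with 38 members positive. A ratio above 0 in the unlettered set and below 0 in the lettered set was found in 38 members (46.9%, against 15.3% of all tested genes), and 35 were above 0 in both. Each unlettered call rests on 1 null library, and each lettered ratio on 1 control library.

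The difference between the sets was tested as an interaction in the same fit. It called 0 members in either direction, beside 0% of all tested genes with a larger ratio in the lettered set and 0.00951% with a smaller one. At an unadjusted p under 0.05, 42 of 81 members had a smaller ratio in the lettered set, against 4.34% of all genes, and 0 had a larger one, against 2.87%. DESeq2 gave an adjusted p for this difference to 1341 genes, 67 of them members, and called 12 members, all with a smaller ratio in the lettered set, beside 6.41% of those genes in either direction. With no filter on low counts, edgeR called 4 members, also smaller in the lettered set, beside 0.274% of 19008 genes. Atp5k, subunit e of the membrane part of complex V, shows the pattern: 92.2 and 76.8 CPM in the unlettered controls and 152 in their null library, and 67.5 CPM in the lettered control and 48.0 and 36.2 in the null libraries. Its log2 ratio was thus 0.85 in the unlettered set and -0.68 in the lettered set.

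**Figure D3:**
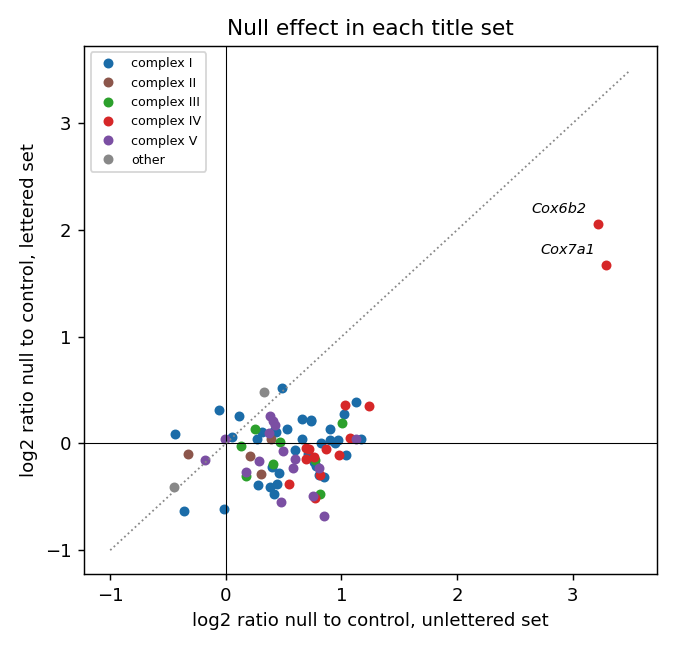
Log2 ratio of null to control in the unlettered set (horizontal axis) and in the lettered set (vertical axis) for the 81 tested members, coloured by complex; the dotted line marks equal ratios. Most points lie right of 0 and below the line, with medians of 0.58 and -0.05, and Cox6b2 and Cox7a1 stand apart at the upper right.

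The 22 members that rose in the unlettered set, each against a single null library, held 10 of 26 supernumerary subunits of complex I, 3 of 5 of complex III (Uqcr10, Uqcrh and Uqcrq) and 5 of 11 ubiquitous subunits of complex IV (Cox4i1, Cox6a1, Cox6b1, Cox6c and Cox8a). Cox6b2, Cox7a2l, Atp5l of the membrane part of complex V and Atp5h of its peripheral stalk completed them. None of the 7 core subunits of complex I, the 4 subunits of complex II, the 3 core subunits of complex III or the 5 subunits of the F1 head was among them. Of all tested genes 6.17% rose in this set, so classes this small can hold no call without differing from the background. The classes were not tested against each other. The unlettered medians were 0.27 for the complex I core and 0.75 for its supernumerary subunits, 0.25 and 0.77 for the corresponding parts of complex III, 0.26 for complex II and 0.77 for ubiquitous complex IV. In complex V they were 0.38 for the F1 head, 0.28 for the c ring, 0.55 for the peripheral stalk and 0.85 for the other membrane subunits. The lettered medians of the same classes lay between -0.55 and 0.11.

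Roles differed in exon length as well, taken as the merged exons of a gene's annotated transcripts, which can exceed the length of any 1 transcript. Core subunits of complexes I to III with the F1 head and complex II, 19 genes in all, had a median exon length of 1.78 kb and a median unlettered ratio of 0.27. The supernumerary subunits of complexes I and III, 31 genes, had medians of 0.86 kb and 0.76, and the ubiquitous complex IV subunits 0.66 kb and 0.77. Across the 80 tested members with an annotated length, Spearman's rho between exon length and ratio was -0.58 in the unlettered set and 0.18 in the lettered set. Across 10401 tested genes it was -0.23 and -0.03. These are descriptions across genes, which share libraries and are not independent replicates. Members were short, with a median of 1.11 kb against 3.30 kb for all tested genes. In the bin under 0.6 kb, the unlettered median was 0.83 in 14 members and 0.51 in all 134 genes; from 0.6 to 0.8 kb it was 0.84 in 14 members and 0.70 in all 148 genes. From 0.8 to 1.2 kb the medians were 0.69 in 17 members and 0.50 in all 519 genes. From 1.2 to 2 kb they were 0.41 in 19 members and 0.35 in all 1597 genes, and above 2 kb 0.31 in 16 members and -0.08 in all 8003 genes. In the lettered set the medians of the same bins ran from -0.15 to 0.10 in members and from -0.12 to 0.07 in all genes. The part of length in the members' ratios was not tested.

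**Figure D4:**
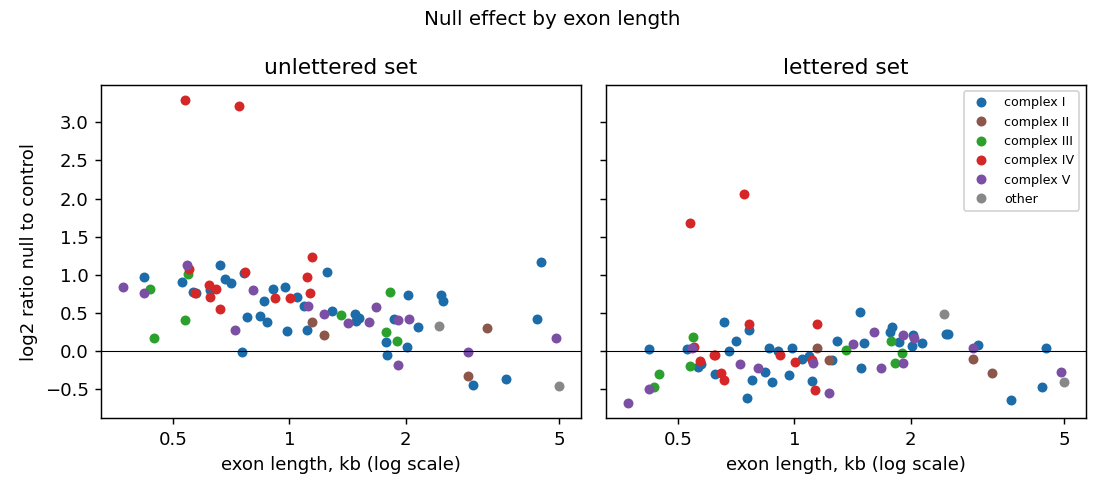
Log2 ratio of null to control (vertical axis) against exon length in kb (horizontal axis, log scale) for the 80 tested members with an annotated length, in the unlettered set (left) and the lettered set (right), coloured by complex. Shorter members have higher ratios in the unlettered set (Spearman's rho -0.58), and the lettered set lacks that slope (0.18).

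For many members the title sets were further apart than the groups. With group as a term, 8 members were higher and 37 lower in the lettered set (17.7% and 10.9% of all tested genes), and the median lettered to unlettered log2 ratio was -0.56 against 0.01 for all genes. Ndufab1, the mitochondrial acyl carrier protein, was at 8.14, 6.28 and 15.9 CPM in the 3 unlettered libraries (controls, then null) and 174, 205 and 153 CPM in the lettered ones (control, then null). Cox5a, a ubiquitous subunit of complex IV, was at 8.73, 7.77 and 14.4 CPM and then 185, 165 and 137 CPM. The sets did not overlap for either gene, whereas the groups did. The log2 ratios of lettered to unlettered were 4.03 (SE 0.27, edgeR adjusted p = 1.3e-06) for Ndufab1 and 3.94 (SE 0.26, adjusted p = 1.11e-06) for Cox5a.

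Uqcrfs1 was at 21.8, 26.7 and 33.7 CPM in the unlettered libraries and 192, 188 and 198 CPM in the lettered ones. Atp5b was at 602, 721 and 585 CPM and then 1935, 1642 and 1833 CPM. Both groups lay together within each set, and the set ratios were 2.75 (SE 0.19) and 1.56 (SE 0.15) on the log2 scale. Cox4nb, an older symbol of the Emc8 gene beside Cox4i1, was at 5.77, 5.003 and 3.91 CPM and then 50.6, 34.7 and 41.4 CPM. Cox4nb, Ndufb2, Atp5d and Ndufa10 completed the 8 higher members, with log2 ratios of 3.26, 1.76, 1.59 and 1.42. Of the 8, 3 overlap an exon on the opposite strand (Ndufab1, Cox5a and Ndufb2), and 0 have over 50% of their 50-base words elsewhere in the annotation. Opposite-strand overlap was present in 27.5% of tested members and 29.5% of tested genes.

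In the other direction, Ndufa3, a supernumerary complex I subunit, was at 188, 180 and 315 CPM in the unlettered libraries and 76.8, 75.2 and 57.2 CPM in the lettered ones, a log2 ratio of -1.76 (SE 0.22, edgeR adjusted p = 8.99e-05). Atp5g2 followed at -1.66 and Uqcr11 at -1.34. Atp5g2 was at 215, 231 and 332 CPM and then 93.1, 86.0 and 72.8 CPM, and Uqcr11 at 349, 367 and 405 CPM and then 168, 142 and 129 CPM. For these genes, too, every library of one set was above every library of the other. All 4 peripheral stalk genes and all 5 supernumerary genes of complex III were lower in the lettered set, whereas none of the 4 subunits of complex II passed. The lettered set holds more null libraries than the unlettered one, and dropping the set term moved Atp5b from -0.17 to 0.32 and Atp5g2 from 0.18 to -0.13 on the log2 scale, null against control.

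**Figure D5:**
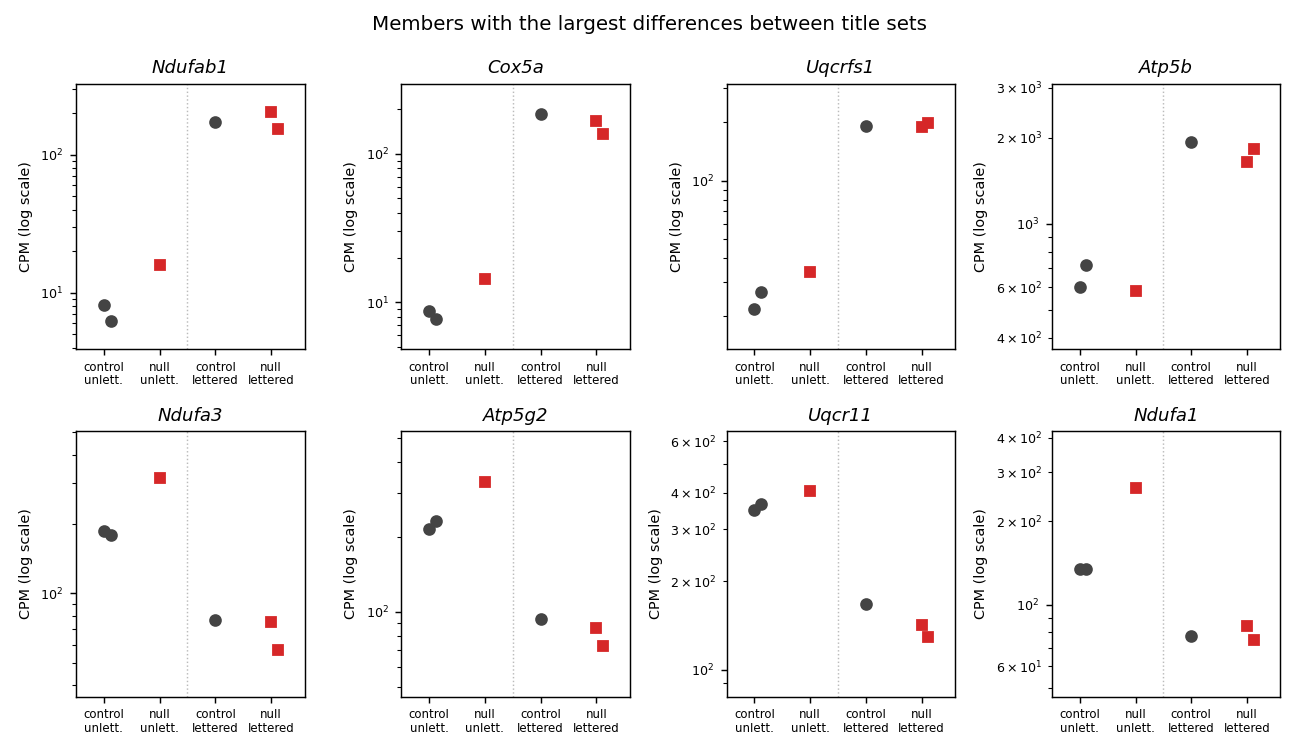
Level in CPM (vertical axis, log scale, with its own range in each panel) of 8 members with large differences between title sets, in each library by group and set; circles are controls and squares null libraries. The upper 4 genes are higher in the lettered libraries and the lower 4 higher in the unlettered ones, in both groups.

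Related genes outside the symbol pattern were read from lists chosen with earlier results of these data known. Of 13 further subunits and electron carriers, among them Cyc1, Cycs and the remaining complex I subunit genes Ndufc1 and Ndufc2, 0 passed the set-adjusted test in either direction, with a median log2 ratio of 0.35. In the unlettered set, against a single null library, their median was 0.82, beside 0.04 for all tested genes. Cyc1, the cytochrome c1 subunit of complex III, resembled Uqcrfs1 in its split by title set, with 28.9, 31.6 and 27.9 CPM in the unlettered libraries and 234, 211 and 235 CPM in the lettered ones. Of 24 tested assembly factors, 0 passed (median 0.26). In the mitochondrial ribosome 0 of 76 proteins passed (median -0.05). Of all tested genes, 8.65% rose and 4.16% fell in the set-adjusted test, with a median of 0.04.

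Among 16 tested regulators of mitochondrial gene expression, 2 fell and 0 rose (median -0.27), where 4.16% of all tested genes fell and 8.65% rose. Neither passed with group alone (Pprc1 log2 ratio -0.99, edgeR adjusted p = 0.511; Gabpa -0.76, 0.423). Pprc1, a coactivator related to PGC-1α, was at 28.6, 29.5 and 69.5 CPM in control replicates 1 to 3 and 8.40, 19.3 and 36.3 CPM in null replicates 1 to 3. Within each set every null library was below every control, with a log2 ratio of -1.55 (SE 0.30, edgeR adjusted p = 0.00696). Gabpa, the DNA-binding subunit of GABP, was at 20.3, 19.1 and 35.8 CPM in controls and 11.3, 18.9 and 14.1 CPM in null libraries, below all controls, with a log2 ratio of -0.96 (SE 0.29, edgeR adjusted p = 0.0477). Its exons overlap those of Atp5j on the opposite strand over 16.3% of the Atp5j length. Nrf1 had a log2 ratio of -0.62 (edgeR adjusted p = 0.0787) and Tfam, which packages and transcribes mitochondrial DNA, one of -0.52 (0.229).

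The cytosolic ribosome was another of the related lists, and the exon lengths of its genes were not summarized. Of 76 tested proteins, 1 rose, the p53-induced Rps27l (log2 ratio 0.99, edgeR adjusted p = 0.0195), and 0 fell, beside 8.65% and 4.16% of all tested genes. Rps27l did not pass with group alone (log2 ratio 0.94, edgeR adjusted p = 0.249). The medians were 0.57 in the unlettered set and -0.26 in the lettered set, beside 0.58 and -0.05 for the members, and the median set ratio was -1.60 against -0.56. A ratio above 0 in the unlettered set and below 0 in the lettered set was found in 73.7% of these proteins, 50% of the mitochondrial ribosome and 46.9% of the members. It was found in 30.8% of the further subunits and carriers, 8.33% of the assembly factors, 6.25% of the mitochondrial regulators and 15.3% of all tested genes. The split was thus more frequent than among all genes in both ribosomes. In the assembly factors (2 of 24) and the regulators (1 of 16) the counts are too small to set them apart from all genes. The lists were not tested against each other.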

How the data were processed

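Each library has 1 table of raw counts by gene symbol, which the authors deposited without normalization. Per the submitters' processing notes, FastQC, Trimmomatic 0.32, TopHat2 2.1.0, HTSeq 0.6.1, edgeR and build mm9 were named; the sources used here do not give their order, options or strand setting. Summary lines that name no gene stood only in the unlettered tables, where they held 67.7%, 32.4% and 40.9% of the totals of control replicates 1 and 2 and null replicate 1; they were left out of library sizes, and 25 symbols turned into dates were mapped back to the March and Septin families. No library duplicates another of its group (chi-square per degree of freedom between 21.9 and 369.1).

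The test was edgeR's (version 4.0.16, in R 4.3.3): filterByExpr by group, TMM factors, glmQLFit (robust) and glmQLFTest, 2-sided. Benjamini-Hochberg adjustment ran over all 10512 tested genes at 0.05, and log2 ratios are those of the fitted models. The main fit had group and title set as terms (3 residual degrees of freedom, common coefficient of variation 0.399). Group alone (4 degrees, 0.613), 4 group means (2 degrees, 0.388), other scalings and filters, DESeq2 1.42.0 and each library left out were alternatives; where a set then lacks a group, it no longer compares the groups. Depth limits precision: 3 counts equal 0.139 to 0.444 CPM. The members and lists were chosen with earlier results of these data known. Genes were named by a fixed rule: called members, core subunits (1 of them is not reported here), isoform pairs, the extremes of each complex and the largest set differences; Atp5k, Cyc1, Nrf1, Tfam and the other genes of the lists were named after their values were seen. Exon lengths, overlaps and 50-base words came from GENCODE M21 (GRCm38), matched by symbol for 87 of 88 members, and no coordinates were carried to mm9.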

Additional observations from a re-analysis of the deposited data

How the results depend on the processing

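Every alternative called Cox6b2, but the number of members that rose (4) was 1 with group alone and 8 with no filter on low counts, and ran from 1 to 19 with single libraries left out, 19 without control replicate 3. The number that fell (0) was 1 with DESeq2, Ndufaf4 (-0.54, adjusted p = 0.0283), and 0 with any library left out. Genes that rose among all tested (909) were 120 with group alone and 162 to 869 with a library left out; genes that fell (437) were 1 with group alone, 723 with no filter, 882 with DESeq2 and 40 to 734. The members' median (0.27) ran from -0.06 without null replicate 1 to 0.56 without control replicate 3, and from 0.15 to 0.32 elsewhere. Members lower in the lettered set (37) ran from 10 without null replicate 1 to 51, and those higher (8) from 8 to 10. Members whose effect differed between sets (0) were 4 with no filter and 12 with DESeq2. Signs turned only in ratios that had not passed the test: Atp5a1 was -0.017 with RLE scaling and with DESeq2, -0.032 with TMM without globins and -0.026 with no filter. With group alone Atp5b was 0.32, Atp5g2 -0.13, Cox4nb 0.38 and Cox7a2 0.000. With the filter of 1 CPM in 5 libraries, Atp5g1 was 0.013 and Uqcr11 0.002. With single libraries left out, ratios ran from -0.46 to 0.077 (Ndufs1), -0.30 to 0.80 (Cox5a), -0.073 to 0.051 (Atp5a1), -0.14 to 0.74 (Cox6a1), -0.057 to 0.85 (Cox6b1), -0.39 to 0.53 (Cox7a2), -0.16 to 0.68 (Cox7b), -0.28 to 0.16 (Atp5g1), -0.23 to 0.56 (Atp5g2), -0.17 to 0.27 (Atp5g3), -0.063 to 0.70 (Ndufa4), -0.31 to 0.16 (Uqcr11) and -0.22 to 0.77 (Ndufa3). The cause of these moves was not tested. No paired analysis was possible because the labels carry no replicate numbers.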
